A study of Mus musculus with 2 samples.

Results

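The 10 genes described here mark the mural cells that wrap blood vessels. Acta2, Myh11, Tagln, Cnn1, Pln, Lmod1, Myl9, Tpm2 and Des encode proteins of the filaments or the calcium handling of vascular smooth muscle cells (SMCs) and are called contractile genes here, and Rgs5 is a pericyte marker. They were chosen by name, as known markers of SMCs and pericytes, and all 10 were found among the 28380 genes of both tables. Non-haematopoietic cells of femur and tibia were profiled by single-cell RNA sequencing (scRNA-seq) at postnatal day 30, from C57BL/6 mice that all received tamoxifen, with both sexes in each library. The Dach1OE library (genotype label Apj CreERT2 - Dach1OE +/f) came from mice in which a tamoxifen-inducible Cre, driven by the capillary endothelial gene Aplnr (also called Apj), switched on a Dach1 transgene placed in the Rosa26 locus. The Control library (genotype label Dach1OE +/f) came from mice labelled with the same transgene but without the Cre. Per the methods the Dach1OE line was also bred with a fluorescent Cre reporter and each library pooled a pair of mice, so there was 1 library per group. No p-value was therefore computed, and mouse, library and genotype cannot be told apart.

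Mural cells sit on the outer side of the endothelium. SMCs form the contractile coat of arteries and arterioles, in which actin and myosin filaments slide past each other when calcium rises, and pericytes are scattered along capillaries within the basement membrane. The serum response factor (SRF), with its partner myocardin, is known to drive many smooth muscle genes through the CArG box, a short A- and T-rich element.

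The 10 genes differ in their roles. Acta2 (chr19:34241090-34255590, minus strand, GRCm38) encodes smooth muscle α-actin of the thin filament and Myh11 (chr16:14194535-14291372, minus strand) the smooth muscle myosin heavy chain of the thick filament. Myl9 (chr2:156775420-156781658, plus strand) encodes the regulatory light chain of myosin, whose phosphorylation starts contraction. Tpm2 (chr4:43514711-43523765, minus strand) encodes a tropomyosin, Cnn1 (chr9:22099216-22109630, plus strand) calponin, Tagln (chr9:45929619-45936058, minus strand) transgelin and Lmod1 (chr1:135324807-135368065, plus strand) leiomodin, all of which bind actin or its filaments. Pln (chr10:53337667-53345987, plus strand) encodes phospholamban, which restrains the calcium pump of the sarcoplasmic reticulum. Des (chr1:75360329-75368579, plus strand) encodes the intermediate filament protein desmin, and Rgs5 (chr1:169655501-169695813, plus strand) a regulator of G-protein signalling widely used as a pericyte marker.

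The promoters of 4 of these genes are shown, from 250 bases before to 50 after the start, from RefSeq on GRCm38.p6 and in the direction of transcription. Acta2 and Rgs5 are shown as the best known markers of SMCs and of pericytes, and Des as the gene with the widest gap between the libraries in SMCs. Myl9 is shown as the only promoter with an exact match to the CArG box, which is in capitals. The windows are chr19:34255324-34255623 (minus strand) for Acta2, chr2:156775214-156775513 (plus strand) for Myl9, chr1:75360042-75360341 (plus strand) for Des and chr1:169655251-169655550 (plus strand) for Rgs5.
Acta2 promoter: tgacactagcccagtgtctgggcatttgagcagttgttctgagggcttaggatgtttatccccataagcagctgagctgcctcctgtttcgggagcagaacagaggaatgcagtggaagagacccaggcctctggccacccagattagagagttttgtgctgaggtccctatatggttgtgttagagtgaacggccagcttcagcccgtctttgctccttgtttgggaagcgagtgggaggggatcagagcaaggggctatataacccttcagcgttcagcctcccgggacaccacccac
Myl9 promoter: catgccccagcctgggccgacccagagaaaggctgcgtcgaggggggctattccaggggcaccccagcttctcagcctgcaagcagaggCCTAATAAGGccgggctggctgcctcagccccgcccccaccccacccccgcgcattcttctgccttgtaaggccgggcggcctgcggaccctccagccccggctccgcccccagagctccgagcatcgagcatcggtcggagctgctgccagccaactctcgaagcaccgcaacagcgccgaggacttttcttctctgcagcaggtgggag
Des promoter: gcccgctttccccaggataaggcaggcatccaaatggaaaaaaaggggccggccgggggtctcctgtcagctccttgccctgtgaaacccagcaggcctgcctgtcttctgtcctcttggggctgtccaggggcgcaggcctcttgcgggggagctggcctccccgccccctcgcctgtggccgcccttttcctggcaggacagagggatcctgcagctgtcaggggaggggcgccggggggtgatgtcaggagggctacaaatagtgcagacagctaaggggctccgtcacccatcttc
Rgs5 promoter: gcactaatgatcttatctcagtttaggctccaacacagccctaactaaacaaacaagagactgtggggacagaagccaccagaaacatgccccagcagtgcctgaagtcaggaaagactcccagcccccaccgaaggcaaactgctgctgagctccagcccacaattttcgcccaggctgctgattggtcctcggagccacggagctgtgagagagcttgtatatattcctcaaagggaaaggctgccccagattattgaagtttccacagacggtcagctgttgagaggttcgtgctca
The table held a promoter for 8 of the 10 genes. Myh11 and Tagln had no entry. The CArG box, searched on both strands without mismatches, was found in 1 of these 8, at 161 bases before the start of Myl9, and in 535 of all 32851 promoters of the same length (1.63%). As only exact matches were counted, near matches such as ccctatatgg and ccttgtttgg in the Acta2 promoter were left out. The letters TATAAA, also searched on both strands, were found in 1 of the 8, at 219 bases before the start of Pln, and in 4473 promoters (13.6%). These matches are letters in a window and say nothing of binding.

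After removal of cells with fewer than 500 or more than 6000 genes or with 25% or more mitochondrial UMIs (unique molecular identifiers, which count captured molecules), 26466 Control and 29317 Dach1OE cells remained, with a median of 3793.5 and 4055 UMIs. The libraries shared 1049 cell barcodes. Cells were assigned to classes by panels of markers that held none of the 10 genes, and a class name means cells like that type. Dach1 was at 5.11 and 187 CPM in Control and Dach1OE endothelial cells (ECs) other than arterial ones, at 2.30 and 12.3 CPM in SMCs (4 and 38 UMIs) and at 12.4 and 13.8 CPM in pericytes (10 and 26 UMIs). CPM here are the UMIs of a gene per 1000000 UMIs of the class, values given in pairs are Control first and Dach1OE second, and all intervals are 95% intervals that cover counting error only. No class was given to 3979 Control and 4572 Dach1OE cells, in which Acta2 was at 153 and 227, Myh11 at 38.1 and 52.5 and Cnn1 at 2.19 and 4.13 CPM, and these cells are left out of the order of classes.

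The smooth muscle gate held 716 Control cells (2.71%, 2.51 to 2.91%) and 1458 Dach1OE cells (4.97%, 4.73 to 5.23%), as a share of the library. The pericyte gate held 259 (0.979%, 0.864 to 1.10%) and 604 cells (2.06%, 1.90 to 2.23%). A further 184 and 357 mural cells could not be placed on either side and were kept as an undivided class. All mural cells together made up 4.38% of Control and 8.25% of Dach1OE cells, of which SMCs were 61.8% and 60.3%. Of the kept cells, 9993 and 9388 had UMIs of Xist, an RNA made in female cells, and none of Y-linked genes. Another 5887 and 7402 had UMIs of Y-linked genes and none of Xist. The rest, with neither or both, were in neither set. Among cells with Xist, SMCs made up 1.35% (1.13 to 1.60%) and 3.12% (2.78 to 3.49%). Among cells with UMIs of Y-linked genes they made up 2.004% (1.66 to 2.40%) and 2.62% (2.27 to 3.01%), with intervals that overlapped, whereas pericytes made up 0.831% (0.662 to 1.03%) and 1.66% (1.41 to 1.94%) of the first and 0.832% (0.616 to 1.10%) and 1.76% (1.47 to 2.08%) of the second set. Dissection, digestion and depletion can set such shares, and their part was not tested.

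The gates were built on the panels of smooth muscle and pericyte markers, so the levels of these markers describe the gates and are no check of them. All 13 smooth muscle markers had UMIs in SMCs, with a summed level of 9500.3 and 8964 CPM, against 2178 and 2083 CPM in pericytes. The 9 pericyte markers, among them Kcnj8, Abcc9 and Kcnk3, summed to 5086 and 5235 CPM in pericytes and to 804 and 715 CPM in SMCs. The classes differed in mitochondrial UMIs, with a median of 17.9% and 16.3% in SMCs and 8.89% and 8.86% in pericytes.

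Of the 10 genes, 9 were highest in SMCs in both libraries among the 10 named classes of at least 50 cells, and Rgs5 was highest in the undivided mural cells, followed by pericytes. Acta2 was at 12842 and 11421 CPM in SMCs, at 4771 and 3602 CPM in undivided mural cells and at 1757 and 1073 CPM in pericytes. Among the named classes of at least 50 cells outside the mural gates Acta2 was highest in fibroblasts, at 153 and 157 CPM. In the haematopoietic class it was at 14.9 and 48.9 CPM. The intervals of neighbours in the order from SMCs over undivided cells and pericytes to fibroblasts did not overlap in either library.

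**Figure D1:**
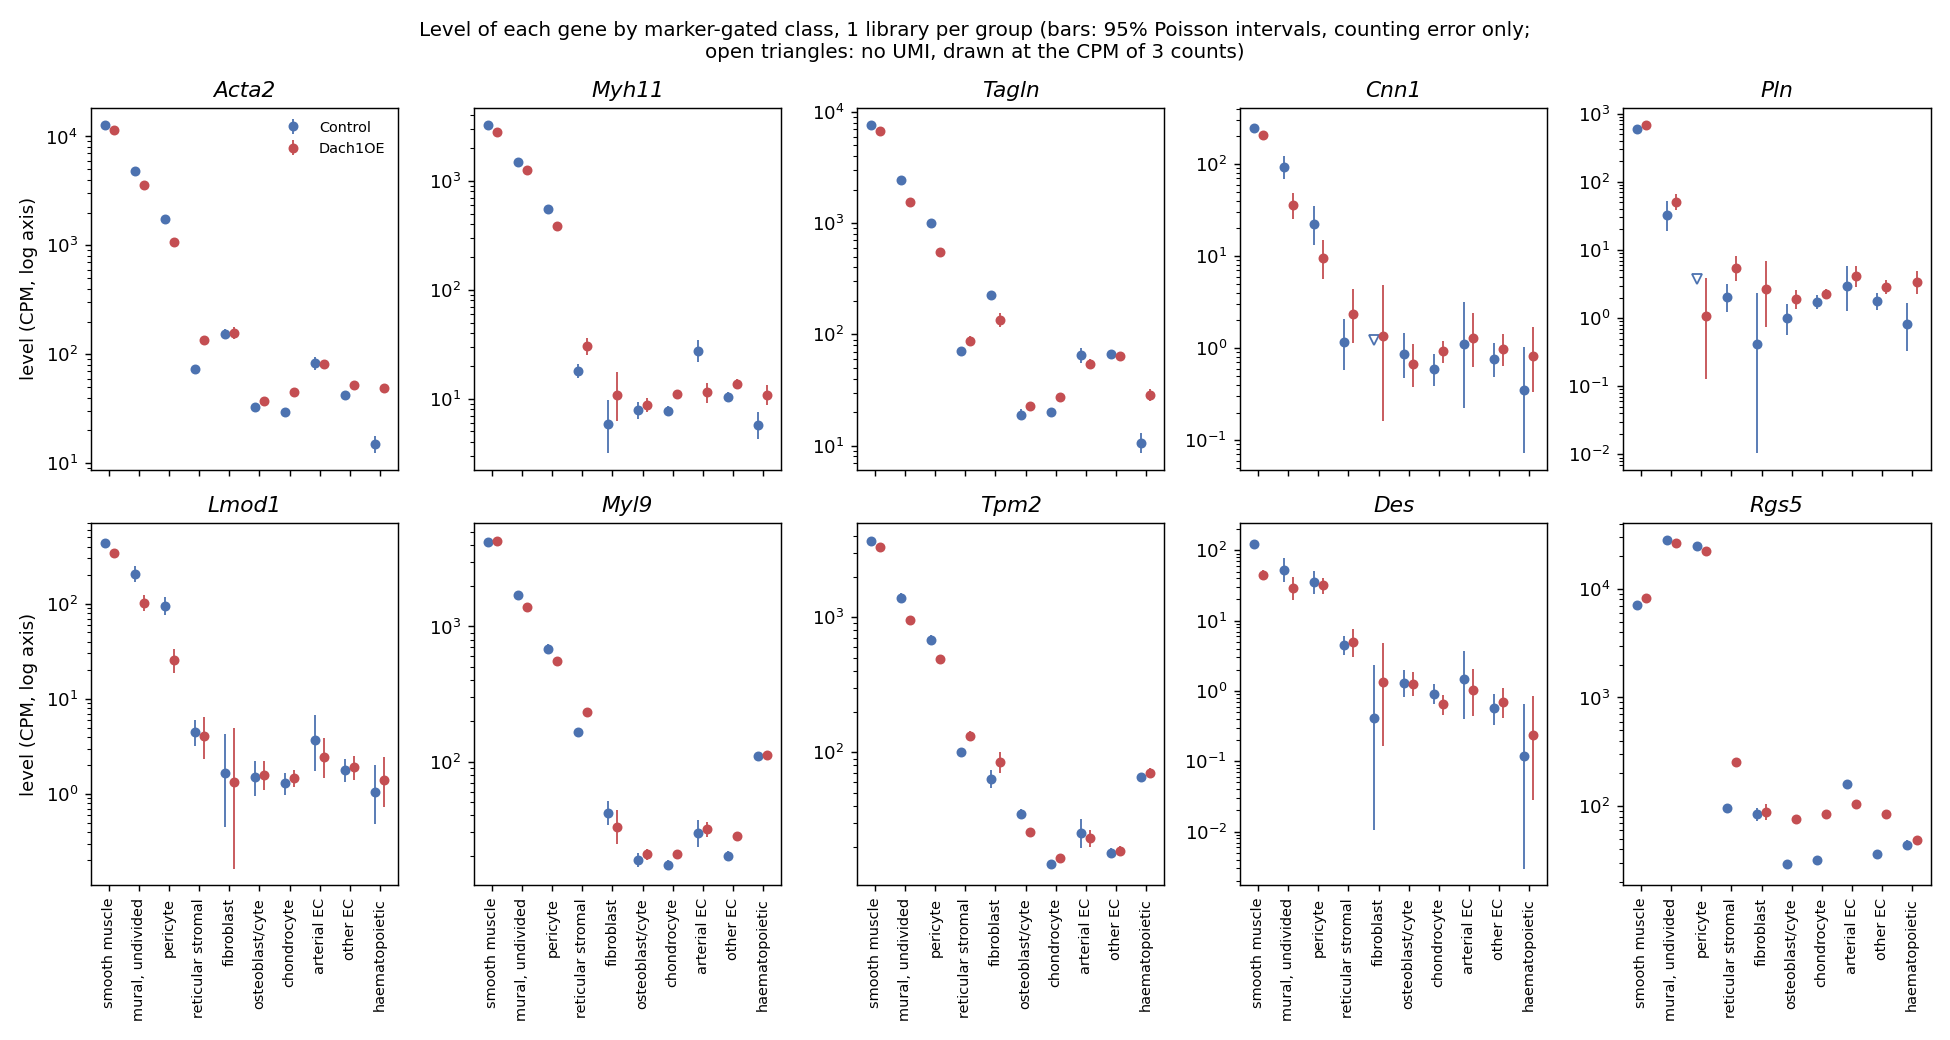
Level of each gene in CPM (log axis) in 10 classes of cells, Control in blue and Dach1OE in red, 1 library each, with 95% Poisson intervals and open triangles at the CPM of 3 counts where no UMI was seen. The contractile genes are highest in SMCs, whereas Rgs5 is at 24763 and 22334 CPM in pericytes and at 7172 and 8198 CPM in SMCs.

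Both myosin genes followed that order from SMCs over undivided cells to pericytes, but fibroblasts were not their highest class outside the mural gates. Myh11 was at 3235 and 2828 CPM in SMCs, at 1489 and 1269 CPM in undivided cells and at 550.2 and 382 CPM in pericytes. No other named class of at least 50 cells exceeded the 30.2 CPM of Myh11 in Dach1OE reticular stromal cells, the Cxcl12- and Lepr-expressing cells of the marrow. Myl9 was at 4236 and 4313 CPM in SMCs and at 682 and 554 CPM in pericytes. Myl9 also had UMIs in reticular stromal cells (166 and 231 CPM) and in the haematopoietic class (110.3 and 112 CPM), whose panel includes the platelet gene Pf4.

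The genes of the thin filament stepped down in the same way. Tagln was at 7657 and 6688 CPM in SMCs, at 1014 and 555 CPM in pericytes and at 226 and 135 CPM in fibroblasts. Tpm2 was at 3661 and 3299.7 CPM in SMCs and at 674 and 489 CPM in pericytes. In the skeletal muscle gate, which held only 15 and 18 cells, Tpm2 was at 8457 and 7397 CPM.

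Cnn1 and Lmod1 were low in every named class of at least 50 cells outside the mural gates. Cnn1 was at 248 and 205 CPM in SMCs and at 22.3 and 9.55 CPM in pericytes, the latter from 18 and 18 UMIs. No named class outside the mural gates exceeded 2.38 CPM of Cnn1 among those of at least 50 cells, and the intervals of neighbours there overlapped. Lmod1 was at 439.9 and 341 CPM in SMCs, at 205 and 103 CPM in undivided cells and at 95.4 and 25.5 CPM in pericytes.

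Pln, the gene of the calcium pump inhibitor, was close to absent from pericytes. It was at 594 and 676 CPM (1033 and 2091 UMIs) in SMCs and at 32.2 and 50.6 CPM in undivided cells, and had 0 and 2 UMIs in pericytes. The 0 UMIs of Control pericytes have a 95% upper limit of 4.57 CPM, and 3 counts over the class would be 3.72 CPM. Against the level of 3 counts Pln was 159.8-fold higher in Control SMCs. This is no lower bound, as the exact 95% interval allows a log2 ratio as low as 7.02. In Dach1OE the log2 ratio was 9.31 (7.46 to 12.36), from 2 UMIs in pericytes. The haematopoietic class, which should lack Pln, was at 0.820 and 3.40 CPM.

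Des and Rgs5 departed from this pattern. Des was at 124 and 44.6 CPM (216 and 138 UMIs) in SMCs, at 53.0 and 29.0 CPM in undivided cells and at 35.9 and 31.8 CPM in pericytes. In Dach1OE the intervals of these 3 classes overlapped, whereas in Control the interval of SMCs was clear of the others. Of all Des UMIs 51.3% and 50.6% lay in the mural gates, and Des was at 1201 and 721 CPM in the few cells of the skeletal muscle gate. Rgs5 was at 28022 and 26786 CPM in undivided cells, 24763 and 22334 CPM in pericytes and 7172 and 8198 CPM in SMCs, with no overlap of these intervals.

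Each of the other 9 genes had between 56.6% (Tpm2 in Control) and 79.7% (Rgs5 in Dach1OE) of its UMIs in the mural gates. Per UMI of Acta2, Tagln had 0.596 and 0.586 UMIs in SMCs and 0.585 and 0.603 in osteoblasts or osteocytes, and Myh11 had 0.252 and 0.248 in SMCs and 0.259 and 0.246 in chondrocytes. Other genes differed in these ratios, with 1.07 and 0.684 UMIs of Tpm2 in osteoblasts or osteocytes against 0.285 and 0.289 in SMCs. Reticular stromal cells differed from SMCs, with 2.28 and 1.71 UMIs of Myl9 per UMI of Acta2 against 0.330 and 0.378. Fibroblasts held 1.48 and 0.862 UMIs of Tagln per UMI of Acta2, and only 0.0379 and 0.0690 of Myh11. ECs other than arterial ones held 1.56 and 1.21 UMIs of Tagln per UMI of Acta2.

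SMCs and pericytes were next compared within each library. The 10 genes are known markers of the types that the gates separate and were chosen with earlier results of these data known. The counts below therefore describe the genes and are no test. In Control 9 of the 10 genes were past 2-fold higher in SMCs and 1, Rgs5, was past 2-fold lower. In Dach1OE 8 were higher and 1 was lower, Des being the one that did not pass. Among all genes with at least 20 UMIs over both classes, 8.1% in Control and 7.49% in Dach1OE were past 2-fold higher, and 15.1% and 13.6% were past 2-fold lower. The median log2 ratio was 2.60 and 3.19 over the 10 genes and -0.23 and -0.20 over all genes tested.

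For Acta2 the log2 ratio of CPM, SMCs over pericytes, reached 2.87 (2.79 to 2.95) in the Control library and 3.41 (3.35 to 3.48) in the Dach1OE library. For Tagln it was 2.92 (2.82 to 3.02) and 3.59 (3.50 to 3.68), and for Myh11 2.56 (2.42 to 2.70) and 2.89 (2.78 to 2.999). Rgs5 had -1.79 (-1.82 to -1.76) and -1.45 (-1.47 to -1.42), so that pericytes held 3.45 and 2.72 times the level of SMCs. Des had the smallest ratio among the contractile genes, 1.79 (1.23 to 2.40) and 0.49 (0.04 to 0.95).

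**Figure D2:**
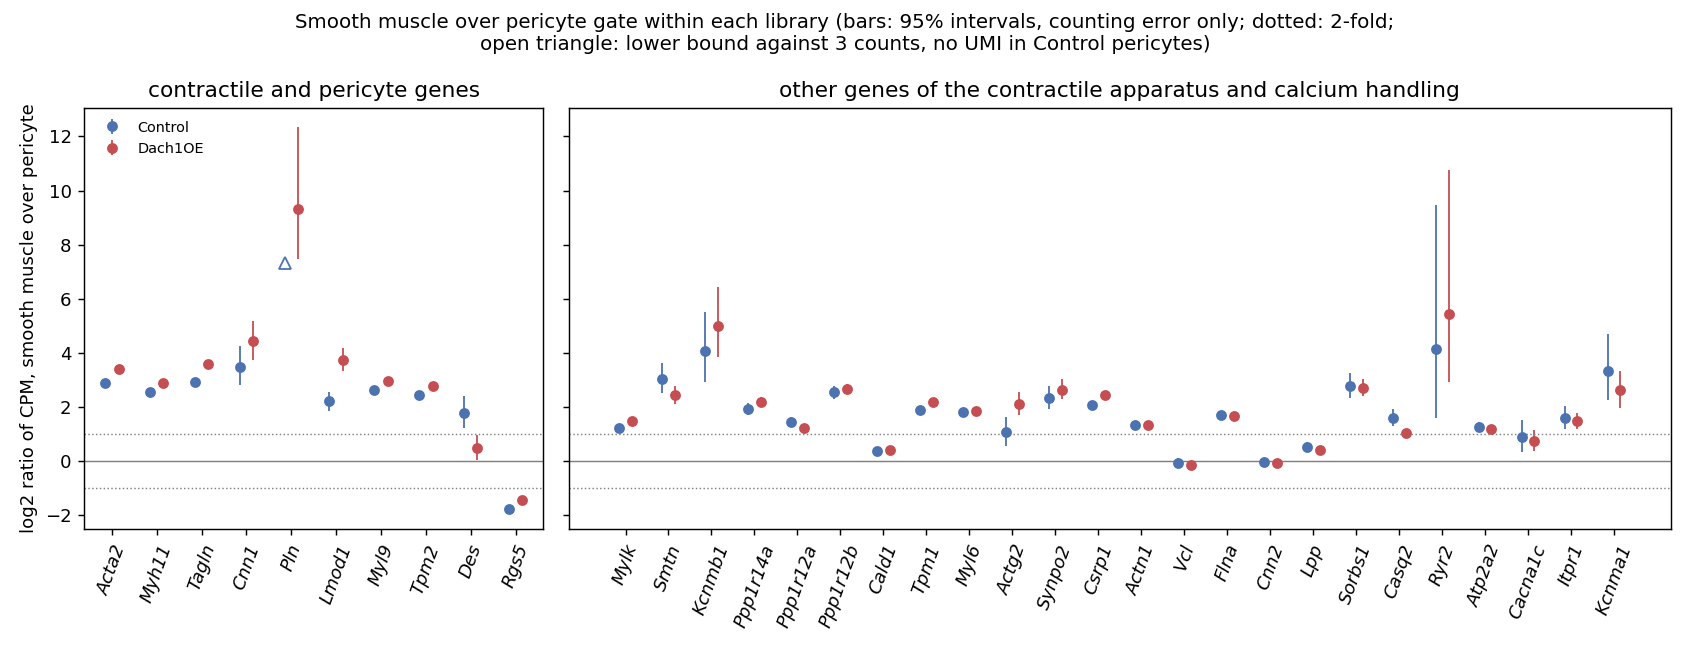
Log2 ratio of CPM, smooth muscle over pericyte gate, within the Control (blue) and the Dach1OE (red) library, for the 10 genes and for 24 other genes of the contractile apparatus and calcium handling, with 95% intervals and dotted lines at 2-fold. The open triangle stands for Pln, which had no UMI in Control pericytes, and is drawn against a level of 3 counts. Although the heading of the figure calls it a lower bound, it is none, as the 95% interval reaches down to 7.02. Of the 10 genes Rgs5 lies below the lower dotted line, at -1.79 and -1.45, and 19 of the 24 other genes lie above the upper one in each library.

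The ratio of Rgs5 changed with the cells that were kept. Among cells under 10% mitochondrial UMIs, which left 42 and 126 SMCs, its log2 ratio was -0.36 and -0.01. There 0 of the 10 genes were past 2-fold lower in either library, and the share of all genes was not computed. Those SMCs held 2794 and 7935 UMIs of Rgs5 and 821 and 1881 of Acta2. Over all SMCs Rgs5 had only 0.558 and 0.718 UMIs per UMI of Acta2, so the limit kept SMCs richer in Rgs5. The ratio of Acta2, SMCs over pericytes, was also smaller under the limit in both libraries. The part of mitochondrial content itself was not tested. With clusters built without the 10 genes in place of the gates the log2 ratio of Rgs5 was -2.41 and -1.93, and that of Acta2 was 1.92 and 2.34.

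Of the 24 other contractile and calcium genes, 19 were past 2-fold higher in SMCs and 0 past 2-fold lower in Control, and 19 and 0 in Dach1OE, with a median log2 ratio of 1.65 and 1.76. Tpm1, another tropomyosin, had 1.88 and 2.19, and Mylk, the kinase that phosphorylates the regulatory light chain, 1.22 and 1.495. Not past the fold were Cald1 (0.37 and 0.41), the gene of the actin-binding caldesmon, Vcl (-0.08 and -0.15), Cnn2 (-0.04 and -0.06), Lpp (0.51 and 0.40) and the calcium channel gene Cacna1c (0.89 and 0.75). Of 6 genes of SRF and myocardin control 1 was past 2-fold higher in each library, Myocd, the gene of myocardin, with 2.92 and 4.03 from 6 UMIs in the pericytes of each library. Of 4 further genes of the RGS family, Rgs16 (-4.50 and -3.48) and Rgs3 (-1.38 and -1.71) were past 2-fold lower in SMCs in both libraries. Rgs2 had -0.40 and -1.48 and Rgs4 1.03 and 0.67, and a difference between the libraries in these ratios was not tested.

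Shares of cells with a UMI were compared at an even depth. When each cell was thinned to 1000 UMIs, Acta2 was seen in 99.2% and 98.4% of SMCs and in 47.1% and 34.9% of pericytes. Tagln was seen in 97.8% and 95.2% of SMCs and in 39.3% and 24.7% of pericytes. In the haematopoietic class, taken as background, the share was 1.16% and 2.08% for Acta2 and 0.835% and 1.54% for Tagln, far below that in pericytes. The median depth was 2237 and 1847 UMIs in SMCs, 2592 and 2726 in pericytes and 4291 and 3969 in the haematopoietic class. Unthinned, Acta2 was seen in 99.7% and 99.4% of SMCs and in 59.5% and 49.0% of pericytes. Thinning left out cells under 1000 UMIs, 4 and 32 SMCs and 2 and 5 pericytes.

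Genes with fewer UMIs were seen in a minority of SMCs. At 1000 UMIs Pln was seen in 36.4% and 45.4%, Lmod1 in 35.1% and 30.6%, Cnn1 in 18.7% and 14.8% and Des in 11.4% and 3.65% of SMCs. In pericytes Lmod1 was seen in 10.1% (6.72 to 14.5%) of Control and 2.84% (1.66 to 4.51%) of Dach1OE cells, intervals that did not overlap. Rgs5 was seen in 93.0% and 94.3% of pericytes and in 57.4% and 68.2% of SMCs. In SMCs of both libraries 6 of the 10 genes were seen in over 50% of cells (Acta2, Myh11, Tagln, Myl9, Tpm2 and Rgs5), and in pericytes 1, Rgs5. The share of all genes seen in over 50% of cells was not computed, so these counts only describe the 10 genes.

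**Figure D3:**
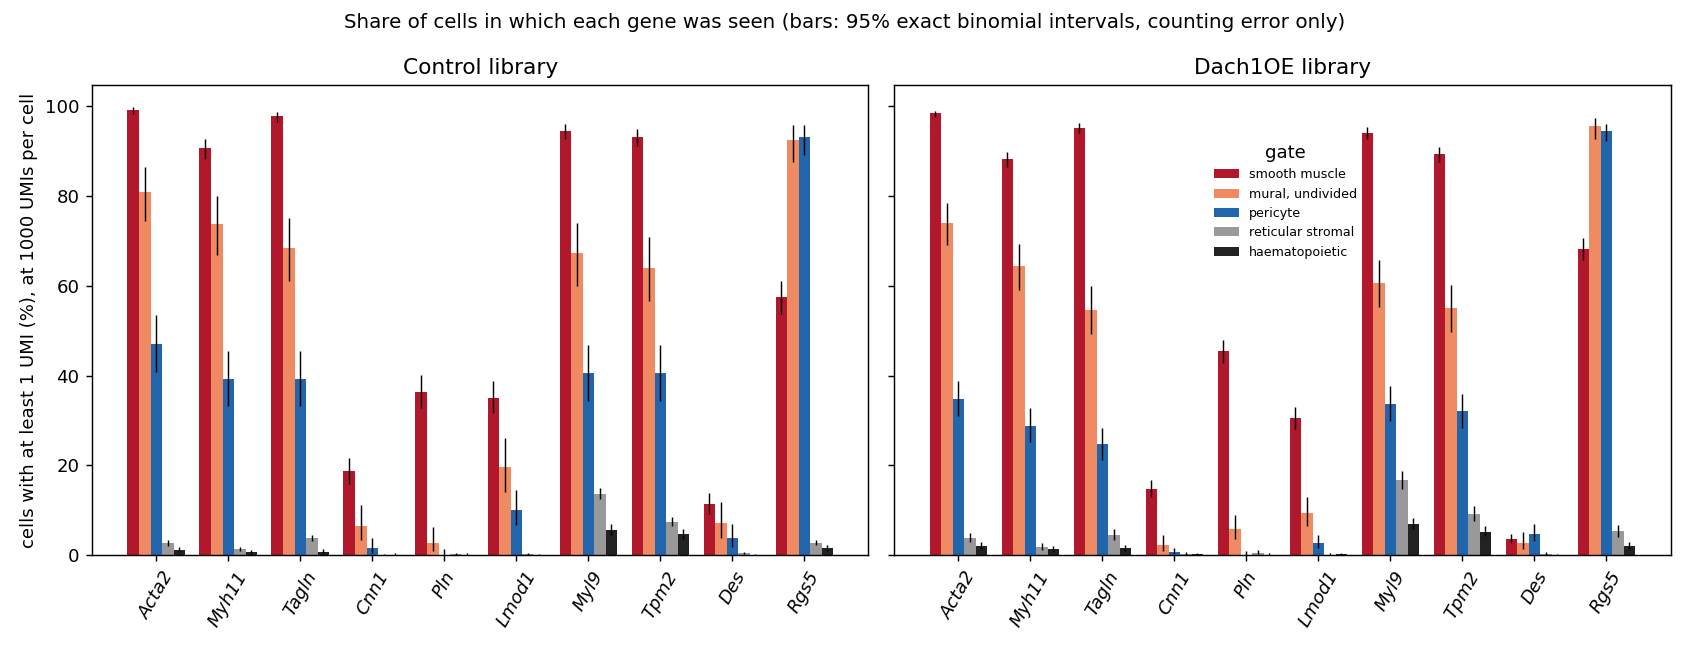
Percent of cells with at least 1 UMI of each gene after thinning to 1000 UMIs per cell, in the Control (left) and the Dach1OE (right) library, for 5 classes, with 95% exact binomial intervals. Acta2 was seen in 99.2% and 98.4% of SMCs against 47.1% and 34.9% of pericytes, and Rgs5 in 93.0% and 94.3% of pericytes.

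Cells of either gate varied among themselves. The level of Acta2 per cell, as UMIs per 10000, ran from 44.4 over 118 to 210.1 in Control and from 40.9 over 109 to 197 in Dach1OE SMCs (10th percentile, median and 90th percentile). Rgs5 was spread more widely in the same cells, from 0 over 13.1 to 283 and from 0 over 20.9 to 285. In pericytes Rgs5 ran from 48.7 over 266 to 489.9 and from 46.3 over 240.1 to 416, whereas Acta2 ran from 0 over 4.59 to 59.4 and from 0 over 0 to 36.3. The 5% of pericytes with the most Acta2 held 31.2% and 40.1% of its UMIs.

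At 1000 UMIs the median SMC showed 6 of the 9 contractile genes in both libraries, and 90.4% and 86.5% showed 5 or more. The median pericyte showed 2 in Control and 1 in Dach1OE, and 20.6% and 29.5% of pericytes showed none. Acta2 and Rgs5 were seen together in 56.7% and 67.0% of SMCs, in 74.9% and 71.1% of undivided cells and in 46.3% and 34.6% of pericytes. Rgs5 without Acta2 was seen in 0.702% and 1.19% of SMCs and in 46.7% and 59.8% of pericytes.

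SMCs were then split by whether they held a UMI of Rgs5, which compares cells within 1 library and no conditions. In Control 475 SMCs had one and 241 had none, with a median depth of 2147 and 2321 UMIs. In Dach1OE these were 1109 and 349 SMCs with 1805 and 1903 UMIs. All 9 contractile genes were higher in the SMCs without a UMI of Rgs5 in both libraries, with intervals that overlapped for Lmod1 and Des. The split was not run on all genes, so whether this is particular to contractile genes was not tested. As CPM add up to a fixed total, the absence of Rgs5 UMIs by itself raises the other genes slightly.

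Acta2 was at 10364 against 17172 CPM in Control SMCs with and without Rgs5, and at 9907 against 16101 CPM in Dach1OE. Tpm2 was at 2721 against 5303 CPM and at 2683 against 5207 CPM. Cnn1, the calponin gene, had the largest ratio in both libraries, with 151 against 419 CPM and 121 against 465 CPM. Myh11 differed less, with 2963 against 3710.1 CPM and 2674 against 3304 CPM.

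**Figure D4:**
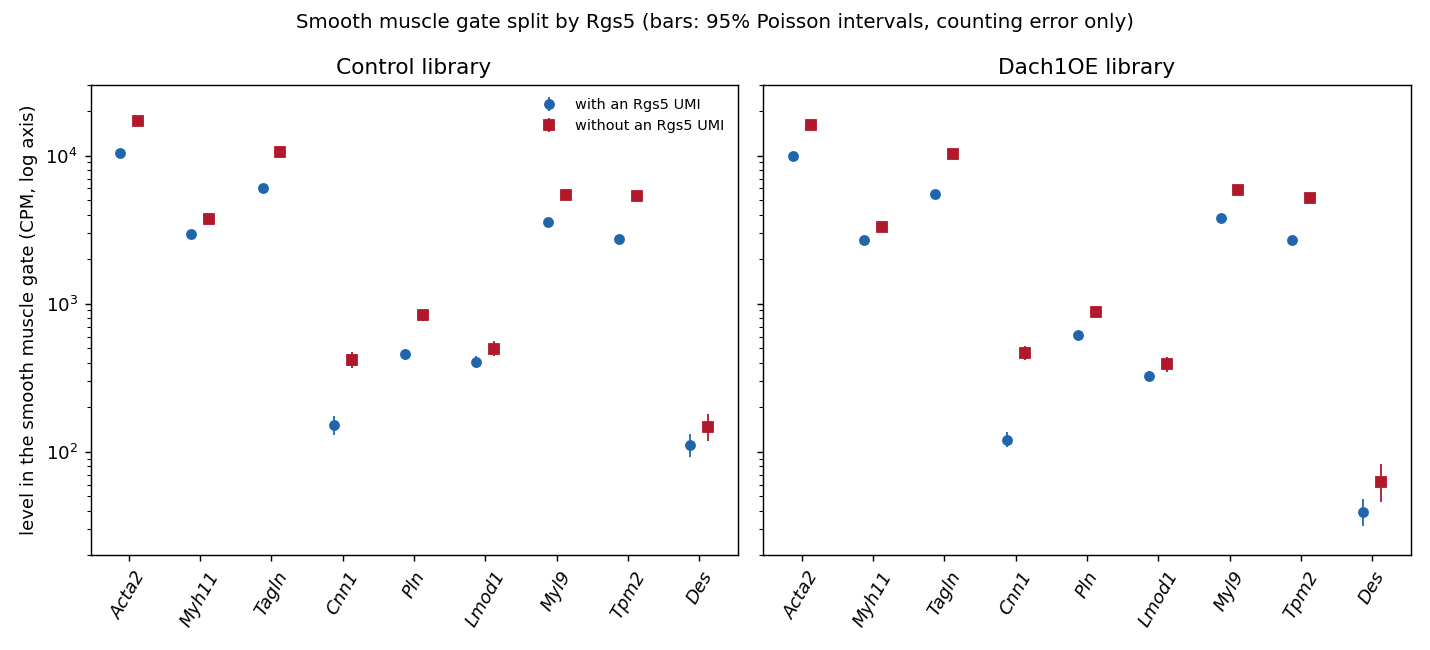
Level in CPM (log axis) of the 9 contractile genes in SMCs with (blue circles) and without (red squares) a UMI of Rgs5, in the Control (left) and the Dach1OE (right) library, with 95% Poisson intervals. All 9 genes lie higher in the cells without Rgs5, Cnn1 by the largest ratio (151 against 419 CPM and 121 against 465 CPM). The split was not run on all genes.

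Pericytes were split in the same way by Acta2. Rgs5 was at 25731 against 23043 CPM in the 154 Control pericytes with and the 105 without a UMI of Acta2, and at 23521 against 21007 CPM in the 296 and 308 Dach1OE pericytes. Tagln was at 1506 against 138 CPM and at 997 against 60.7 CPM, and Myh11 at 691 against 299 CPM and at 521 against 227 CPM. Pericytes with Acta2 were deeper, with a median of 2904.5 against 2353 and 3022 against 2545.5 UMIs, and the part of depth was not tested.

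The comparison of the libraries asked how mural cells differed where ECs carried the active Dach1 transgene. In SMCs 1 of the 10 genes, Des, was past 1.5-fold lower in Dach1OE and 0 were past 1.5-fold higher. In SMCs with under 10% mitochondrial UMIs Des had only 6 and 7 UMIs and was not compared, Pln was past the fold higher (1.44, 0.52 to 2.50) and Cnn1 (-0.82, -1.87 to 0.26) and Lmod1 (-0.64, -1.21 to -0.04) lower, where 21.6% of all genes were past it higher and 12.5% lower. Over all genes with at least 20 UMIs in the whole SMC gate, 5.81% were past 1.5-fold lower and 9.57% past 1.5-fold higher, so the count among the 10 genes was near the background. The median log2 ratio, Dach1OE over Control, was -0.18 over the 10 genes and 0.05 over all genes tested.

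Des was at 124 and 44.6 CPM in SMCs, a log2 ratio of -1.48 (-1.80 to -1.16), or 2.78-fold lower in Dach1OE. It was seen at 1000 UMIs in 11.4% (9.14 to 13.9%) of Control and 3.65% (2.74 to 4.75%) of Dach1OE SMCs. It was also lower among cells with Xist (142 and 33.0 CPM from 47 and 24 UMIs, log2 ratio -2.10, -2.88 to -1.36) and among cells with UMIs of Y-linked genes (165 and 32.8 CPM from 57 and 15 UMIs, -2.33, -3.26 to -1.49). If each pair of mice was a female and a male, each of these sets 1 mouse against 1 mouse. Of the 216 and 138 UMIs of Des in all SMCs, most lay in cells of neither set, where the level was not computed. The ratio over all SMCs was smaller in size than that in either set. In pericytes Des was at 35.9 and 31.8 CPM (29 and 60 UMIs), with a log2 ratio of -0.17 (-0.84 to 0.52).

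The genes of the filaments differed less between the SMCs of the libraries. The log2 ratio was -0.17 (-0.19 to -0.14) for Acta2, -0.19 (-0.24 to -0.15) for Myh11, -0.20 (-0.23 to -0.16) for Tagln and -0.15 (-0.20 to -0.10) for Tpm2. Lmod1 had -0.37 (-0.50 to -0.23) and Myl9 0.03 (-0.02 to 0.07). Cnn1 had -0.28 (-0.46 to -0.10) over all SMCs, with 0.15 (-0.30 to 0.62) in cells with Xist and -0.80 (-1.25 to -0.37) in cells with Y-linked UMIs. Pln had 0.19 (0.08 to 0.30) over all SMCs, but -0.64 (-0.87 to -0.40) in cells with Xist and 0.20 (-0.07 to 0.48) in cells with Y-linked UMIs, so for neither gene was the direction the same in both sets. Rgs5 had 0.19 (0.16 to 0.22) over all SMCs and 0.32 (0.26 to 0.38) and 0.48 (0.41 to 0.56) in these sets. The sets held 135 and 293 SMCs with Xist and 118 and 194 with Y-linked UMIs, of 716 and 1458 in all. Levels in the other SMCs were not computed. Past 1.5-fold lower were Pln and Des in SMCs with Xist, beside 10.1% of all genes, and Cnn1 and Des in those with Y-linked UMIs, beside 11%. In these sets 0 of the 10 genes were past 1.5-fold higher, beside 16.4% and 14.6% of all genes.

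Genes of other sources differed beside these values. All 5 genes of a list of free RNA, the haemoglobin genes Hbb-bs, Hba-a1 and Hba-a2 with the bone matrix genes Col1a1 and Bglap, were past 1.5-fold higher in Dach1OE SMCs, with a median log2 ratio of 1.55. The 12 chondrocyte markers, all of them seen, summed to 1287 and 2257 CPM in SMCs, and the 13 endothelial markers to 304 and 327 CPM. Of 6 genes of dissociation stress 3 were past 1.5-fold lower, Fos (-0.95), Atf3 (-1.54) and Hspa1a (-0.77). The part of these sources in the values of the 10 genes was not tested.

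**Figure D5:**
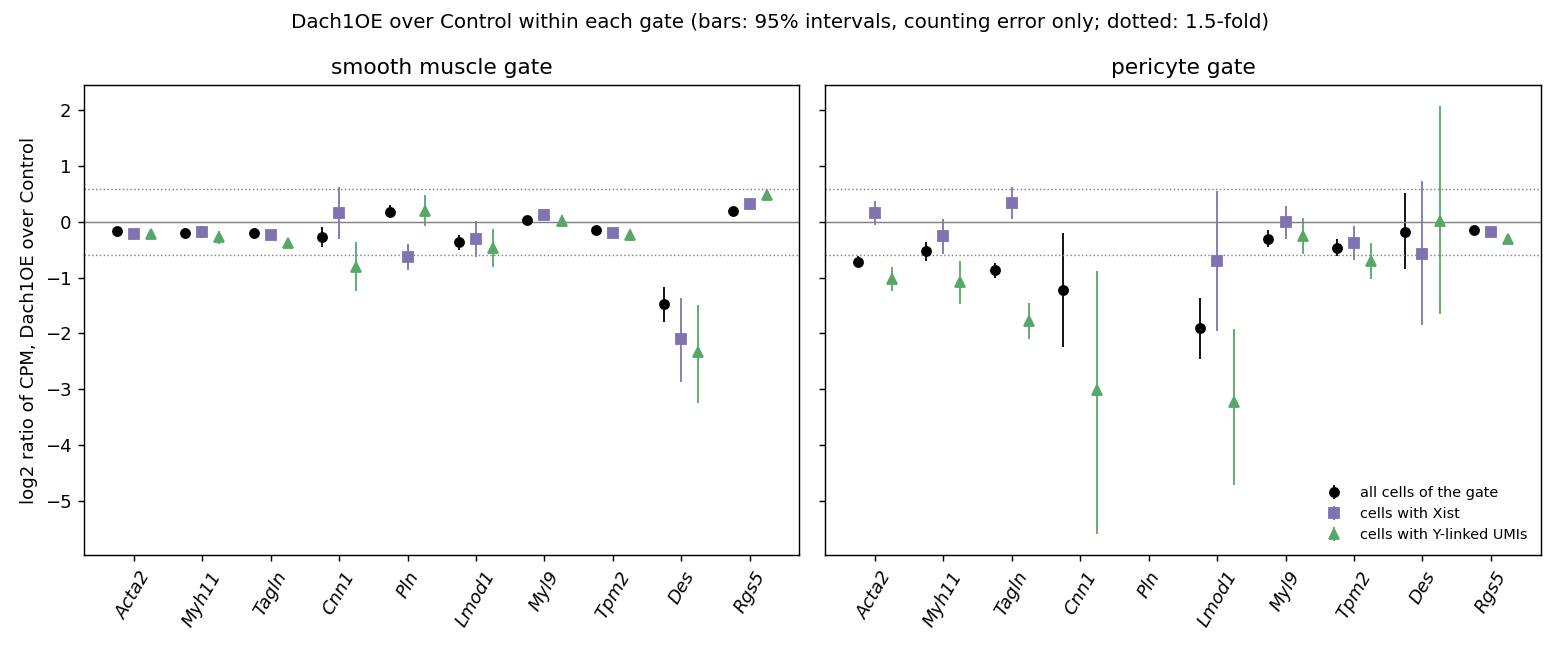
Log2 ratio of CPM, Dach1OE over Control, for the 10 genes in the smooth muscle and the pericyte gate, over all cells, those with Xist and those with UMIs of Y-linked genes, with 95% intervals and dotted lines at 1.5-fold, and with no point for Pln in pericytes or Cnn1 in pericytes with Xist. Des in SMCs lies below the lower line over all cells and in both sets by sex (-1.48, -2.10 and -2.33). Tagln in pericytes lies at -0.87, 0.34 and -1.78. Cells with neither or with both kinds of UMI are only among all cells.

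In pericytes, over all cells, 4 of the 9 genes with at least 20 UMIs (Acta2, Tagln, Cnn1 and Lmod1) were past 1.5-fold lower in Dach1OE and 0 past 1.5-fold higher, and Pln, with 2 UMIs, was not compared. With under 10% mitochondrial UMIs Tagln and Lmod1 remained past the fold, whereas Acta2 did not pass (-0.58, -0.71 to -0.44) and Cnn1, with 12 and 7 UMIs, was not compared, beside 8.45% of all genes past the fold lower and 10.9% higher. Over all genes tested in the whole pericyte gate 7.39% were past 1.5-fold lower and 9.13% past 1.5-fold higher. The median log2 ratio was -0.53 over the 9 genes and 0.02 over all genes tested.

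Acta2 was at 1757 and 1073 CPM in pericytes, a log2 ratio of -0.71 (-0.81 to -0.61), and Tagln at 1014 and 555 CPM, a ratio of -0.87 (-1.002 to -0.73). Lmod1 was at 95.4 and 25.5 CPM (77 and 48 UMIs), with -1.91 (-2.46 to -1.37), and Cnn1 had -1.22 (-2.25 to -0.20) from 18 and 18 UMIs. Those of Cnn1 lay in only 6 of 259 Control and 10 of 604 Dach1OE pericytes, a spread over cells that the interval does not cover. Myh11 had -0.53 (-0.70 to -0.35), Tpm2 -0.46 (-0.62 to -0.31) and Myl9 -0.30 (-0.45 to -0.15). Rgs5, the pericyte marker, had -0.15 (-0.17 to -0.12) from 19985 and 42087 UMIs.

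Between the sets by sex, the lower levels of Acta2 and Tagln were seen in pericytes with Y-linked UMIs and not in those with Xist. Many pericytes had neither or both kinds of UMI and were in neither set. Of 1418 and 2022 UMIs of Acta2 in all pericytes, 267 and 525 lay in the Xist and 307 and 523 in the Y-linked set. Levels in the remaining pericytes were not computed, so whether the lower levels were confined to the Y-linked set was not tested. In 83 Control and 156 Dach1OE pericytes with Xist, Acta2 was at 958 and 1071 CPM (0.16, -0.05 to 0.38) and Tagln at 527 and 667 CPM (0.34, 0.05 to 0.63). In 49 and 130 pericytes with Y-linked UMIs, Acta2 was at 2095 and 1029.6 CPM (-1.02, -1.23 to -0.82) and Tagln at 1112 and 323 CPM (-1.78, -2.11 to -1.46). With the Xist cells alone, 1 of the genes was past 1.5-fold lower in place of 4, namely Lmod1 from 12 and 13 UMIs (-0.70, -1.95 to 0.56). With the Y-linked cells alone 5 were past 1.5-fold lower, Acta2, Tagln and Lmod1 (-3.23 from 19 and 7 UMIs) and also Myh11 (-1.08, -1.47 to -0.70) and Tpm2 (-0.70, -1.03 to -0.37), which did not pass over all cells. Over all genes with at least 20 UMIs, 10.8% were past 1.5-fold lower in the Xist and 13.2% in the Y-linked pericytes, and 12.7% and 19.7% were past it higher, against 0 of the 10 genes in either. Sex and mouse cannot be told apart here.

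The 12 chondrocyte markers summed to 971 and 1463 CPM in pericytes and the 13 haematopoietic markers to 112 and 221 CPM, with Elane at 0 in both libraries and Laptm5 and Cd53 at 0 in Control, and the part of such RNA in the values of the 10 genes was not tested. Of the free RNA list 0 genes were past 1.5-fold higher and 0 lower in pericytes, with a median log2 ratio of 0.15. Of the 5 dissociation stress genes tested there, 2 were past 1.5-fold higher, Fos (1.06) and Egr1 (0.71), and 2 lower, Hspa1a (-1.05) and Hspa1b (-0.82). In the undivided mural cells Tagln was at 2466 and 1561 CPM (log2 ratio -0.66), Acta2 at 4771 and 3602 CPM (-0.41) and Rgs5 at 28022 and 26786 CPM (-0.07). Of the 10 genes 4 were past 1.5-fold lower there, Tagln, Cnn1 at -1.38 (-2.03 to -0.74), Lmod1 at -0.99 (-1.39 to -0.59) and Des at -0.87 (-1.65 to -0.08), beside 8.77% of all genes, and 1 was higher, Pln at 0.65 (-0.16 to 1.53), beside 13.8%.

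Of the 24 other contractile and calcium genes, 0 were past 1.5-fold higher and 1 was past 1.5-fold lower in Dach1OE SMCs, with a median log2 ratio of -0.14. The one was Synpo2, which encodes an actin-binding protein, at 339 and 225 CPM (-0.59, -0.75 to -0.43). Among those with the most UMIs, Tpm1 had -0.06, Myl6 0.15, Mylk -0.17, Flna -0.17, Cald1 -0.15 and Csrp1 -0.14. Of the 22 tested in pericytes 2 were past 1.5-fold lower, Synpo2 (-0.89, 54 and 68 UMIs) and Actg2 (-0.81, 39 and 52 UMIs). Casq2, the calsequestrin that stores calcium in the sarcoplasmic reticulum, was the 1 past 1.5-fold higher in pericytes, at 123 and 228 CPM (0.89, 0.57 to 1.22), and had 0.33 in SMCs.

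Of 6 genes of SRF and myocardin control, 1 was past 1.5-fold lower in SMCs, Klf4, which is known to counter the contractile programme, at 45.4 and 27.1 CPM (-0.74, -1.20 to -0.28), and 0 of the 5 tested were past the fold in either direction in pericytes. Srf was at 38.0 and 27.5 CPM in SMCs (-0.47, -0.95 to 0.02) and Myocd at 56.4 and 52.0 CPM (-0.12, -0.49 to 0.26). In the RGS family Rgs2 was past 1.5-fold lower in SMCs, at 81.7 and 41.4 CPM (-0.98, -1.34 to -0.63), and Rgs16 higher there from 4 and 18 UMIs (1.34, -0.26 to 3.36). Rgs3 was past 1.5-fold higher in pericytes, at 50.8 and 79.1 CPM (0.64, 0.13 to 1.17).

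Summed over all cells of a library, 9 of the 10 genes were higher in Dach1OE, and the share of all genes that were higher was not computed. The mural gates, which held most UMIs of each gene, made up 4.38% and 8.25% of the cells. The part of this make-up in the sums was not tested. Rgs5 was at 436 and 740.0 CPM (log2 ratio 0.76, 0.75 to 0.78), Pln at 9.70 and 17.2 CPM (log2 ratio 0.82, 0.73 to 0.92) and Acta2 at 244 and 331 CPM (log2 ratio 0.44, 0.42 to 0.46). Des alone was lower, at 3.80 and 2.78 CPM (log2 ratio -0.45, -0.63 to -0.27). For Acta2, Myh11, Tagln, Cnn1, Lmod1 and Tpm2 the direction over the whole library was opposite to that within SMCs.

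Outside the mural gates Rgs5 was higher in Dach1OE in several classes. It was at 31.7 and 84.6 CPM in chondrocytes, at 29.0 and 75.5 CPM in osteoblasts or osteocytes, at 36.3 and 84.0 CPM in ECs other than arterial ones and at 95.4 and 254 CPM in reticular stromal cells. In the haematopoietic class it was at 44.2 and 48.5 CPM, and in arterial ECs it was lower in Dach1OE (159.7 and 105 CPM, log2 ratio -0.60). At 1000 UMIs Rgs5 was seen in 1.72% and 3.34% of ECs other than arterial ones, beside 1.54% and 2.14% of the haematopoietic class. The part of free RNA in these levels was not tested.

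For 3 of the genes, those with the most similar pattern were taken over 20 profiles (10 classes in 2 libraries), from 16187 genes outside the panels and the list of 10, by Pearson's r of log2(CPM + 1). For Myh11 they were Trac (0.989), Npy1r, Slc38a11, Casq2 and Olfr78 (0.980). For Rgs5 they included Stac (0.979), Itga7, Ccdc160 and Ephx3 (0.969), and for Des they were Myl1 (0.978), Ppp1r1a, Carmn, Cdh6 and Slc2a4 (0.970). Among the 10 genes themselves r was 0.988 for Acta2 and Tagln and lowest for Pln and Rgs5, at 0.543. Profiles of a library share its depth and its free RNA, so these values only describe the tables.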

How the data were processed

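The deposited tables held, for each cell and gene, counts of reads, raw UMIs and RSEC-adjusted UMIs (corrected by the authors' pipeline for errors and duplicates in the UMI). Lineage-, CD45- and CD117-depleted cells of 1 Control and 1 Dach1OE library were measured. The deposited counts came from version 1.11 of the authors' BD Rhapsody WTA Analysis Pipeline, run on GRCm38 with GENCODE annotation, refined cell calling and intronic reads included per the file headers, and the methods name another version of the pipeline. Whether counting used strand is not given in the sources used here. The libraries held 143986818 and 166999989 RSEC-adjusted UMIs in 28720 and 32028 cells. Their median depth limits what a cell can show, and each level rests on the UMIs of a gene summed over a class.

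Cells with 500 to 6000 genes and under 25% mitochondrial UMIs were kept. A cell was scored on each panel of markers by the mean of its capped, log-scaled levels, and took the class with at least 4 markers and a score 1.5 times the next. SMCs and pericytes were told apart in the same way with at least 2 markers, and other mural cells stayed undivided. Gucy1a3 and Gucy1b3 were not in the tables. Doublets were marked with Scrublet (in scanpy 1.11.5; 6.53% and 6.60%) and kept in the reported values. UMIs were summed per class and library and given as CPM with exact Poisson intervals, ratios with exact conditional binomial intervals and shares with Clopper-Pearson intervals (Python 3.11.15, scipy 1.17.1, numpy 2.4.6). Genes with at least 20 UMIs over both sides were counted past 1.5-fold between libraries and past 2-fold between classes. TMM scaling used edgeR 4.0.16 in R 4.3.3. Scripts were tested on simulated data.

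All 10 genes are named, the other genes come from lists, of which those past the fold or otherwise up to 6 with the most UMIs are named, and genes of similar pattern are the top 5 with at least 100 UMIs, of which 1 is not reported here. The 10 genes, the lists and the panels were chosen with earlier results of these data known, and the scoring of the gate was settled after the tables were seen. Alternatives changed the UMI column, the cell filters, the gate, doublets, cell weights, depth, scaling, the UMI minimum and the sex of the cells. Gene positions are from GENCODE on GRCm38. No columns of the authors' own comparisons were used.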

Additional observations from a re-analysis of the deposited data

Results flagged for a closer look

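Tagln differed in direction between the sets of pericytes by sex. Its log2 ratio, Dach1OE over Control, was 0.34 in cells with Xist and -1.78 in cells with Y-linked UMIs. The intervals lay on opposite sides of 0, and pericytes in neither set were not compared. Rgs5 differed in direction between the mural classes, with a log2 ratio of 0.19 in SMCs and -0.15 in pericytes. Each difference rests on 1 library per group and was not tested.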

How the results depend on the processing

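Under 10% mitochondrial UMIs, SMCs made up 0.211% of Control and 0.584% of Dach1OE cells and pericytes 0.775% and 1.80%. In those cells 1 of the 10 genes was past 1.5-fold higher and 2 lower in Dach1OE SMCs (0 and 1 in the report), beside 21.6% and 12.5% of all genes. In pericytes 2 were lower (4 in the report), beside 8.45% of all genes. Past 2-fold lower in SMCs than in pericytes were 0 in Control and 0 in Dach1OE, and the share of all genes there was not computed. Among cells with Xist 2 genes were past 1.5-fold lower in SMCs (Pln and Des) and 1 in pericytes, where Acta2 (0.16) and Tagln (0.34) lay on the other side of 0. Among cells with Y-linked UMIs 2 were lower in SMCs (Cnn1 and Des) and 5 in pericytes. With 1000 to 6000 genes per cell, SMCs made up 2.18% and 2.96% of cells. With clusters in place of the gate, pericytes made up 2.18% and 3.98% and Dach1OE SMCs 5.27%, and without Scrublet doublets Dach1OE SMCs made up 5.24%. Without a minimum of UMIs 4 other contractile genes were past 1.5-fold lower in pericytes. The share of all genes seen in over 50% of pericytes was not computed. Unthinned, 6 of the 10 genes in Control and 3 in Dach1OE were seen in over 50% of pericytes, as more UMIs per cell were read. For the rest the cause was not tested. The log2 ratio of Des in SMCs ran from -2.33 to -1.35 over the settings that left at least 20 UMIs, and from 13 UMIs under the stricter mitochondrial limit it was -1.19, -2.98 to 0.66. Over all settings that of Rgs5 ran from 0.07 to 0.48 and that of Pln from -0.64 to 1.44. No paired analysis was possible because each group had 1 library and no test was run.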
